A study of Cyprinus carpio with 18 samples.

Results

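The genes described here are the 10 protein-coding rows of the deposited table whose description names an iodothyronine deiodinase, a thyroid hormone receptor alpha or beta, thyroglobulin or transthyretin, selected on their read counts summed over all libraries. They are 10 of 90808 features, and 12 protein-coding rows matched those words. They comprise a type I and a type II deiodinase, 3 alpha receptors, 3 beta receptors, 1 thyroglobulin and 1 transthyretin. The summed reads that chose them were 6457 for the receptor alpha-like gene LOC109100142, 4302 for transthyretin-like (LOC109052536, symbol ttr), 3837 for thyroglobulin-like (LOC109105320, tg), 2751 for receptor alpha-like LOC109099214 (thrab), 2584 for receptor beta LOC109071377 (thrb), 2504 for receptor beta-like LOC109111853 and 2262 for type I deiodinase-like LOC109076656. The last of the 10 were receptor alpha-A LOC109052976 with 1461 reads, type II deiodinase-like LOC109070220 (dio2) with 462 and receptor beta-like LOC109071359 with 370. Just outside stood a receptor alpha-A-like gene (LOC109048843) with 83 reads and a receptor beta-like gene (LOC109075323) with 2. Another type II deiodinase-like row, LOC109085933, had 7510 reads, more than any of the 10, and was left out because the deposited table classes it as a transcribed pseudogene. An NCBI table of another carp assembly (ASM1834038v1) lists the same gene as protein-coding, so its values are given beside those of dio2.

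Thyroid hormone reaches a vertebrate embryo before the embryo can make its own, since a fish egg is laid with the mother's hormone in its yolk. Thyroglobulin is the large protein on which the thyroid follicle builds thyroxine, and transthyretin is a plasma protein that carries the hormone in blood. Deiodinases act inside cells: the type I and type II enzymes turn thyroxine into the more active triiodothyronine, and the thyroxine 5-deiodinase (type III) inactivates both hormones. Triiodothyronine binds the nuclear receptors alpha and beta, which pair with retinoid X receptors on DNA, repress target genes through corepressors when empty and activate them when bound.

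The samples were whole embryos and larvae of wild-type Cyprinus carpio, the common carp, from natural spawning of the FFRC No.2 strain, which was bred by selection from Jian, Huanghe and Heilongjiang carp. There were 6 stages with 3 libraries each: cleavage at 2 hours post-fertilization, blastocyst at 6, gastrulation at 12, organ formation at 20, hatching at 64, and larvae 1 day after hatching. The labels say that RNA was pooled in equal amounts within a stage and do not say that the 3 libraries came from separate spawnings, so the tests measure the spread between libraries, which may be technical. Total counts ran from 16326813 to 43270557 per library, and in whole embryos fewer cells of a type and less RNA per cell cannot be told apart. Levels are CPM (read counts scaled to library size) with TMM factors, and a gene is said to have risen or fallen where its adjusted p in edgeR's quasi-likelihood test was under 0.05 over all 69265 features tested.

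Larva replicate 3 stood apart from the other larval libraries. Of 27398 features over 5 CPM in larvae, 1493 differed in it by more than 1 on the log2 scale from the other 2 larvae, against 452 for larva replicate 1 and 356 for replicate 2. Digestive proteases such as trypsins and elastases, a group of 66 rows collected after the values were seen, summed to 3746 CPM in it and to 165 and 162 CPM in the other larvae. Among the 10 genes its CPM was 9.69 times the mean of the other larvae for ttr, 3.04 times for tg, 1.61 times for LOC109100142 and 1.59 times for the type I deiodinase. Not every larval test of the 10 genes is given in the text. Those in the paragraphs on single genes are given with and without this library, and elsewhere where that changes a call. Its part in them was not tested beyond that.

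**Figure D1:**
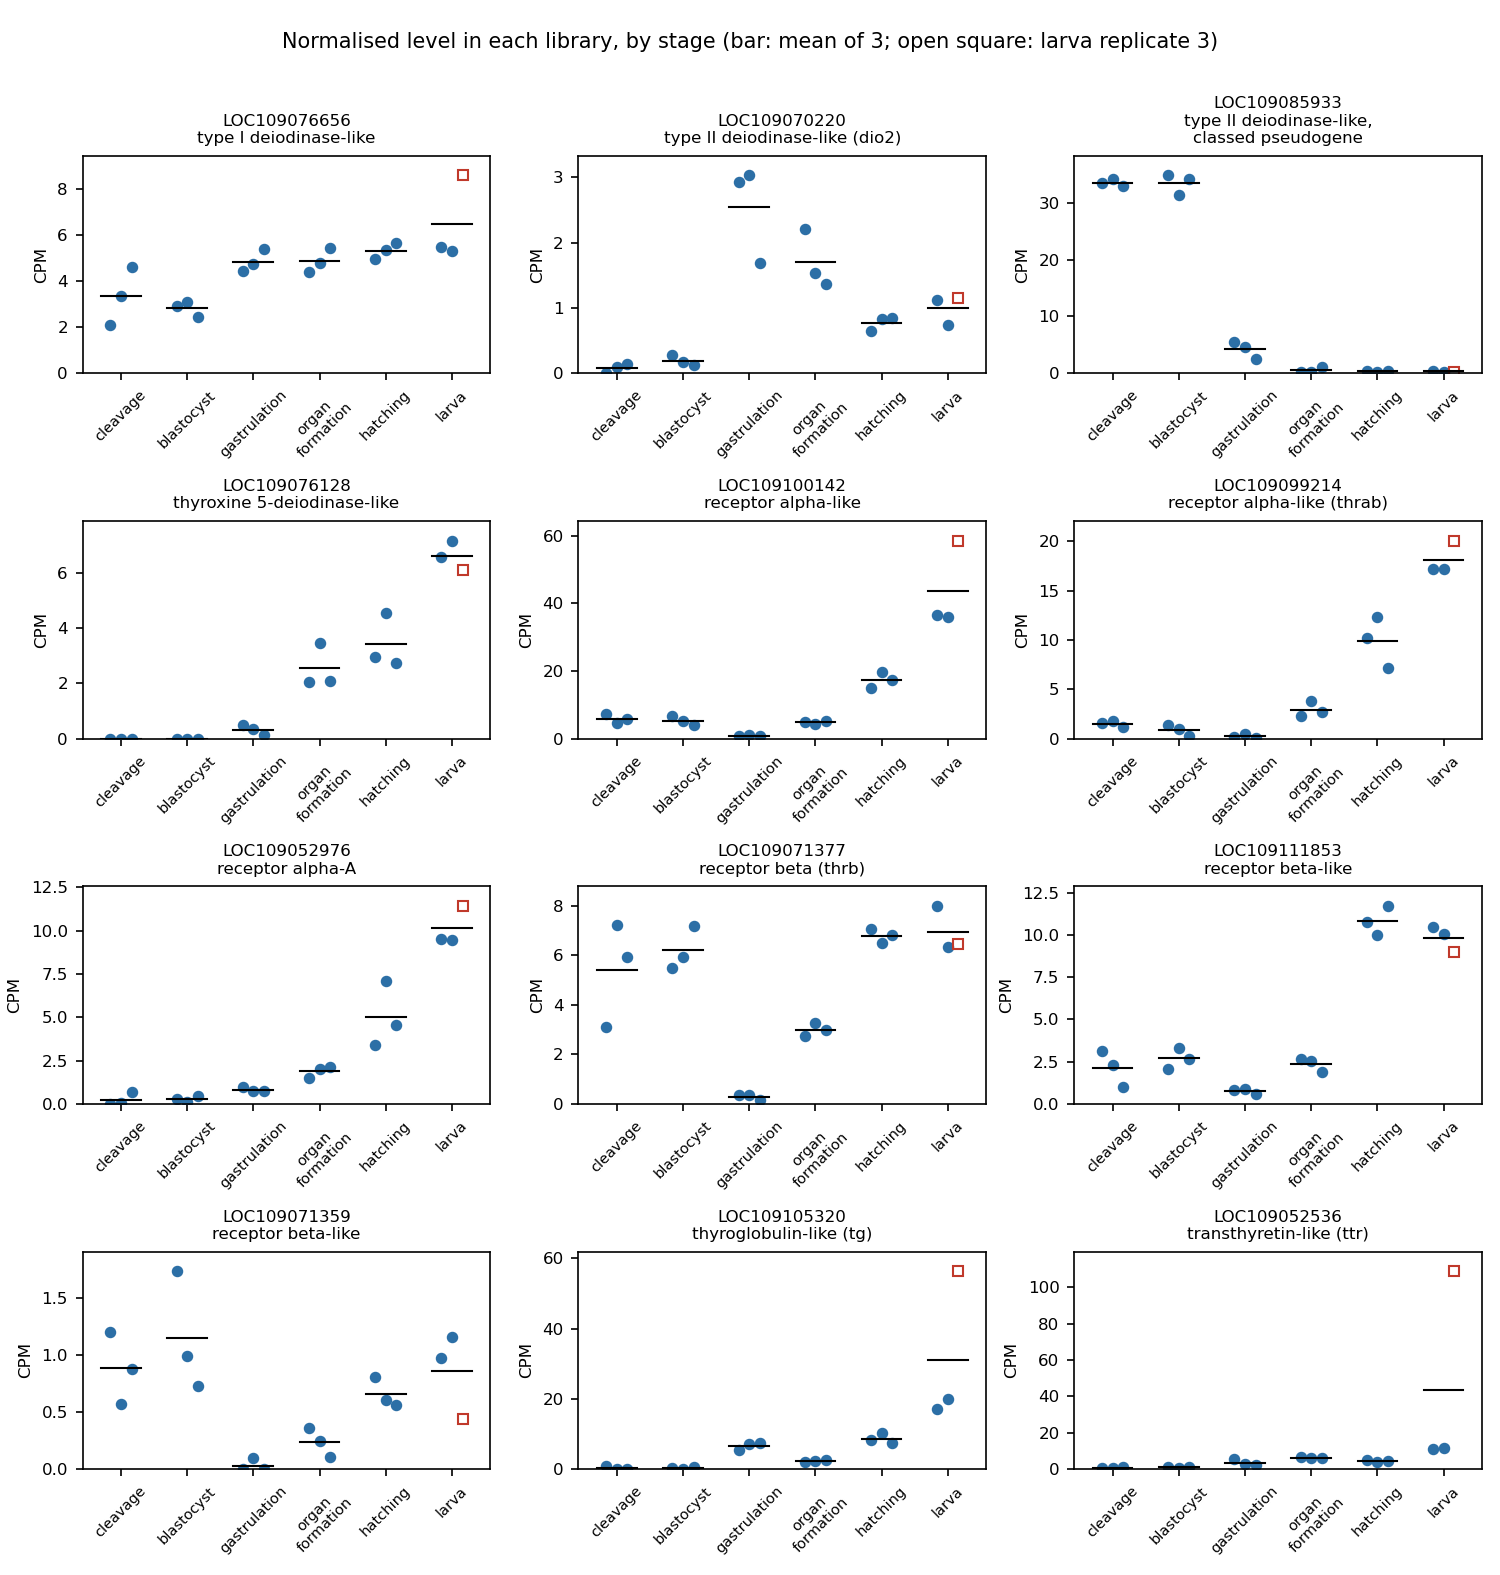
Level in CPM (vertical axes, each from 0) of the 10 genes and of 2 further deiodinase rows in each of 18 libraries, by stage from cleavage to larva. Points are libraries, bars are means of 3, and the open square is larva replicate 3, which lies far above the other larvae for ttr and tg; 5 of the 6 receptor genes are lowest at gastrulation.

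The type II deiodinase row with the higher level changed between the blastocyst and organ formation stages. The row classed as a pseudogene, LOC109085933, had 33.5, 34.1 and 33.0 CPM at cleavage and 34.8, 31.3 and 34.2 CPM at blastocyst, then 5.59, 4.69 and 2.50 CPM at gastrulation. At organ formation it had 0.308, 0.248 and 1.05 CPM, at hatching 0.439, 0.223 and 0.343 CPM and in larvae 0.465, 0.316 and 0.220 CPM. All cleavage and blastocyst libraries lay above all gastrulation libraries, and these lay above all later ones. It fell at gastrulation against blastocyst (log2 change -2.997 ± 0.28, adjusted p = 4.3e-09) and again at organ formation against gastrulation (log2 change -2.97 ± 0.37, adjusted p = 7.2e-07).

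The protein-coding dio2 (LOC109070220) was lowest at cleavage and blastocyst and had its highest mean at gastrulation. It had 0, 0.101 and 0.147 CPM at cleavage and 0.284, 0.173 and 0.121 CPM at blastocyst, 6 and 24 reads in all, against 2.93, 3.03 and 1.69 CPM at gastrulation. It then had 2.21, 1.54 and 1.37 CPM at organ formation, 0.642, 0.828 and 0.841 CPM at hatching and 1.12, 0.737 and 1.15 CPM in larvae. The gastrulation libraries overlapped those of organ formation only, and hatching overlapped larvae. dio2 rose at gastrulation against blastocyst (log2 change 3.69 ± 0.57, adjusted p = 8.1e-06) and stood higher in larvae than at cleavage (log2 change 3.72 ± 0.68, adjusted p = 4.2e-05; without larva replicate 3 3.44 ± 0.74, adjusted p = 2.4e-04). The step to organ formation (-0.58 ± 0.50) and that to hatching (-1.14 ± 0.52) did not pass the test, though the change at hatching passed it in 2 of 28 alternative analyses.

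Per length, the row classed as a pseudogene held 99.8 ± 0.224% of the summed RPKM of both type II rows at cleavage and 99.4 ± 0.228% at blastocyst (mean ± SD over 3 libraries). Its share was 62.2 ± 3.15% at gastrulation, 23.3 ± 17.6% at organ formation, 30.4 ± 9.80% at hatching and 25.3 ± 7.83% in larvae. The row classed as a pseudogene thus held the larger share up to gastrulation and dio2 the larger share after it, a description with no test. The sources used here do not say how reads that fit both rows were counted.

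The type I deiodinase LOC109076656 varied least of the 10 genes. It had 2.09, 3.36 and 4.60 CPM at cleavage, 2.94, 3.09 and 2.47 at blastocyst and 4.43, 4.75 and 5.38 CPM at gastrulation, followed by 4.42, 4.81 and 5.47 at organ formation, 4.97, 5.35 and 5.67 at hatching and 5.50, 5.33 and 8.60 in larvae. In the order of its stage means every neighbouring pair had overlapping libraries. The rise at gastrulation against blastocyst was small (log2 change 0.78 ± 0.28, adjusted p = 0.017) and depended on scaling: with the denominators of the deposited RPKM it was -0.20, with library totals 0.12 (adjusted p = 0.72). It passed the test in 15 of 28 alternative analyses, and among others it lost the call without cleavage replicate 2 or 3, blastocyst replicate 3 or any 1 gastrulation library, at log2 changes of 0.46 to 0.61. Larvae stood above cleavage by 0.96 ± 0.28, adjusted p = 0.0033, and without larva replicate 3 by 0.53 ± 0.29, adjusted p = 0.10. The test over all 6 stages gave adjusted p = 0.0037, and 0.0505 without larva replicate 3.

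The inactivating enzyme is described in the table as thyroxine 5-deiodinase-like (LOC109076128), which the selecting words did not match; it was added after its values were seen. It had 0 reads in all 6 cleavage and blastocyst libraries and 0.477, 0.358 and 0.141 CPM at gastrulation. It had 2.06, 3.47 and 2.102 CPM at organ formation, 2.94, 4.55 and 2.74 at hatching and 6.59, 7.15 and 6.08 in larvae, where larva replicate 3 was not the highest. Against 3 reads summed over the stage it was at least 12.3-fold higher at gastrulation than at blastocyst and at least 196-fold higher in larvae than at cleavage. It rose at gastrulation against blastocyst (adjusted p = 3.5e-05) and at organ formation against gastrulation (log2 change 3.03 ± 0.48, adjusted p = 3.9e-05). With 0 reads at blastocyst it could pass the low-count filter only through later stages and could only be called higher at gastrulation. Because the row was also added after its values were seen, these p-values are given as a description. Its larval libraries lay above all hatching libraries without passing the test (0.95 ± 0.38, and without larva replicate 3 0.99 ± 0.44, adjusted p = 0.23).

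Of the 6 receptor genes, 5 were present at the first 2 stages, fell at gastrulation and rose again at organ formation. Summed over the 6 genes, the level was 16.2, 16.6 and 15.5 CPM at cleavage, 17.8, 16.4 and 15.4 at blastocyst and 3.14, 3.58 and 2.32 CPM at gastrulation. It was 14.4, 16.2 and 15.2 CPM at organ formation, 47.1, 56.2 and 48.1 at hatching and 82.8, 80.1 and 106 in larvae, so that gastrulation lay below and the last stages above all others. The receptor alpha-like gene LOC109100142 had 7.22, 4.63 and 5.87 CPM at cleavage, 6.80, 5.12 and 4.09 at blastocyst and 0.887, 0.977 and 0.774 CPM at gastrulation. It had 4.88, 4.26 and 5.31 CPM at organ formation, 14.9, 19.6 and 17.3 at hatching and 36.7, 35.9 and 58.5 in larvae. Its gastrulation libraries lay below all others, and its larval libraries above all others. It fell at gastrulation (log2 change -2.60 ± 0.27, adjusted p = 2.7e-08), then rose at organ formation (2.45 ± 0.28, adjusted p = 2.1e-07), at hatching (1.84 ± 0.23, adjusted p = 2.2e-06) and in larvae against hatching (1.34 ± 0.21, adjusted p = 2.4e-04). Without larva replicate 3 the last change was 1.05 ± 0.21, adjusted p = 0.0024. It was the highest of the 6 receptors in larvae per length, at 2.83 ± 0.886 RPKM.

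The other receptor alpha-like gene, LOC109099214 (thrab), had 1.57, 1.81 and 1.17 CPM at cleavage, 1.42, 0.964 and 0.315 at blastocyst, 0.136, 0.521 and 0.0352 at gastrulation and 2.31, 3.82 and 2.73 at organ formation. It had 10.2, 12.4 and 7.16 CPM at hatching and 17.2, 17.2 and 20.1 in larvae, and the libraries of these last stages did not overlap. The fall at gastrulation (-1.82 ± 0.58, adjusted p = 0.0083) was on ranges that overlapped, and without blastocyst replicate 1 the change was -1.32 (adjusted p = 0.060). The rise at organ formation (3.53 ± 0.55, adjusted p = 1.5e-05) and that at hatching (1.74 ± 0.41, adjusted p = 0.0024) passed the test, and the larval step (0.87 ± 0.38; without larva replicate 3 0.77 ± 0.41, adjusted p = 0.35) did not.

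The third alpha gene, receptor alpha-A LOC109052976, had few reads at the first stages. It had 0, 0.0336 and 0.685 CPM at cleavage, 15 reads in all, and 0.261, 0.124 and 0.436 CPM at blastocyst. It then had 0.955, 0.749 and 0.739 CPM at gastrulation, 1.49, 2.03 and 2.15 at organ formation, 3.38, 7.07 and 4.58 at hatching and 9.49, 9.47 and 11.4 in larvae, with no overlap between neighbouring stages from blastocyst on. Larvae stood above cleavage by 5.71 ± 0.70, adjusted p = 2.0e-07 (without larva replicate 3 5.44 ± 0.72, adjusted p = 5.0e-07). Its single steps were weak: the rise at gastrulation (1.53 ± 0.66, adjusted p = 0.046) passed the test in 6 of 28 alternative analyses, and its adjusted p there reached 0.15 where 1 library was left out. The step to blastocyst (0.52 ± 0.79) became 4.06 (adjusted p = 0.0030) without cleavage replicate 3, which held most of its cleavage reads.

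Among the beta genes, thrb (LOC109071377) fell at gastrulation and rose again in 2 steps. It had 3.11, 7.22 and 5.92 CPM at cleavage, 5.47, 5.91 and 7.19 at blastocyst and 0.341, 0.358 and 0.176 CPM at gastrulation. It then had 2.73, 3.27 and 2.996 CPM at organ formation, 7.06, 6.50 and 6.82 at hatching and 7.98, 6.35 and 6.44 in larvae. The fall at gastrulation was -4.42 ± 0.37, adjusted p = 6.4e-10, a fitted 21.3-fold, and the rises at organ formation (3.37 ± 0.38, adjusted p = 1.4e-07) and hatching (1.18 ± 0.28, adjusted p = 0.0031) followed. Larval and cleavage libraries overlapped, and their difference (0.36 ± 0.27, adjusted p = 0.23) did not pass the test. Without larva replicate 3 the difference was 0.23 ± 0.30, adjusted p = 0.50, and without cleavage replicate 2 it was 0.66 (adjusted p = 0.048). Larvae against hatching gave 0.03 ± 0.27, and without larva replicate 3 0.05 ± 0.30, adjusted p = 0.98.

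The receptor beta-like gene LOC109111853 was highest at the last 2 stages. It had 3.11, 2.32 and 0.978 CPM at cleavage, 2.09, 3.34 and 2.66 at blastocyst, 0.818, 0.879 and 0.598 at gastrulation and 2.67, 2.53 and 1.89 at organ formation, against 10.7, 10.001 and 11.7 at hatching and 10.46, 10.03 and 8.99 in larvae. All hatching and larval libraries lay above all earlier ones and overlapped each other. The fall at gastrulation was -1.82 ± 0.35, adjusted p = 9.3e-05, the rise at organ formation 1.63 ± 0.36, adjusted p = 6.7e-04 and that at hatching 2.19 ± 0.32, adjusted p = 1.5e-05. Larvae against hatching gave -0.14 ± 0.29, and without larva replicate 3 -0.10 ± 0.32, adjusted p = 0.95.

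The third beta gene, receptor beta-like LOC109071359, is on the same scaffold as thrb in the deposited table and was low throughout. It had 1.20, 0.571 and 0.880 CPM at cleavage, 1.73, 0.989 and 0.726 at blastocyst and 3 reads in all 3 gastrulation libraries together. It had 0.360, 0.248 and 0.105 CPM at organ formation, 0.811, 0.605 and 0.560 at hatching and 0.969, 1.16 and 0.441 in larvae. The ratio of gastrulation to blastocyst reads was 0.0352 (95% exact interval 0.00718 to 0.105, counting error only), and the fall passed the test (adjusted p = 4.0e-05). Organ formation over gastrulation was 5.87 (1.64 to 31.9), and that rise (adjusted p = 0.036) was lost without gastrulation replicate 1 or 3 or organ formation replicate 1 or 2, at adjusted p of 0.070 to 0.16. The receptor alpha-A-like gene just outside the 10, LOC109048843, had 0 reads at cleavage and blastocyst and 0.736, 0.631 and 0.794 CPM in larvae, at least 21.1-fold above 3 cleavage reads.

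**Figure D2:**
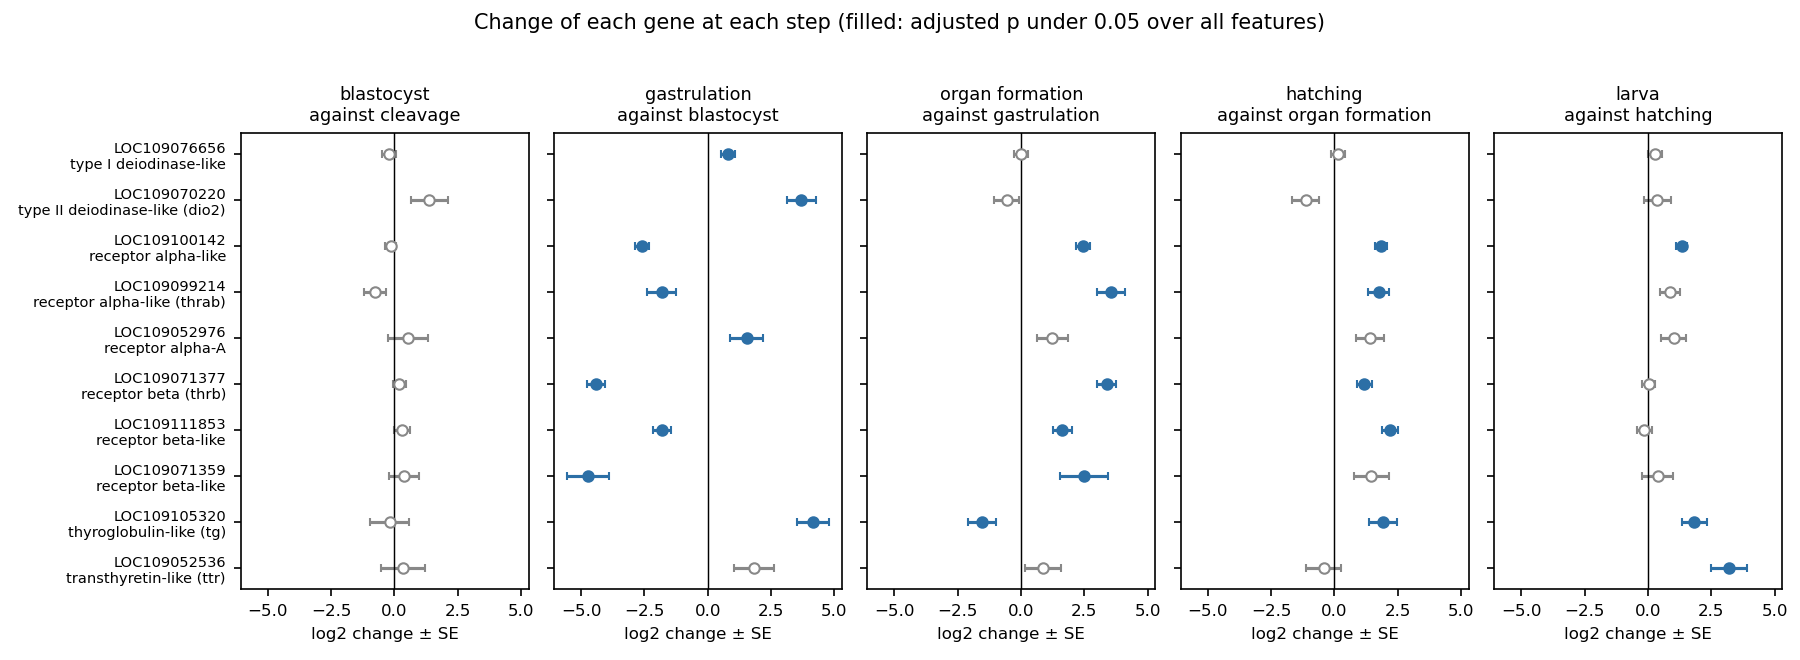
Log2 change (horizontal axes) of the 10 genes at each of 5 steps, later minus earlier stage, with bars of 1 SE from the edgeR fit on 18 libraries. Filled points have an adjusted p under 0.05; at gastrulation 5 receptor genes lie left of 0, and at organ formation all 6 lie right of it.

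Counted together, none of the 10 genes rose or fell at blastocyst against cleavage by edgeR, DESeq2 or limma, and 0 had an unadjusted p under 0.05; of all features tested, 15.8% rose and 6.52% fell. At gastrulation against blastocyst 4 rose and 5 fell, where 44.4% of all features rose and 22.3% fell, and the median log2 change was -0.52 over the 10 genes and 0.75 over all features. That all-feature median depended on scaling and was -0.06 with the denominators of the deposited RPKM; the 5 receptor genes that fell were lower under every scaling tried. At organ formation against gastrulation 5 rose and 1 fell, beside 28.1% and 19.8% of all features. At hatching against organ formation 5 rose, beside 17.4%, with medians of 1.43 and -0.01. The all-feature median at this step was 0.396 with the denominators of the deposited RPKM. None of the 10 fell by edgeR (12.2% of all features did), 1 fell by DESeq2, none by limma, and 1 had an unadjusted p under 0.05 in that direction.

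In larvae against hatching 3 of the 10 genes rose, LOC109100142, ttr and tg, where 5.32% of all features rose. DESeq2 called 1 and limma 5. DESeq2 gave no p-value for ttr in any comparison, so its counts leave ttr out. Without larva replicate 3, 2 rose and 0 fell, beside 2.77% and 4.41% of 72008 features. In larvae against cleavage 8 rose, all but thrb and LOC109071359, where 58.5% of all features rose, with medians of 3.22 and 2.12; without larva replicate 3, 7 rose and 0 fell, beside 54.8% and 23.1%. None of the 10 fell in either comparison by edgeR, DESeq2 or limma (6.13% and 22.5% of all features fell by edgeR), and 0 had an unadjusted p under 0.05 in that direction. All 10 passed the low-count filter, and all 10 differed among the 6 stages, as did 93.7% of all features.

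Levels per length shifted between the receptor classes over development. The alpha genes held 32.6, 22.7 and 28.5% of the summed receptor RPKM in the 3 cleavage libraries and 26.2, 20.2 and 15.5% in those of the blastocyst. They held 43.6, 44.0 and 47.1% at gastrulation, 41.3, 45.6 and 49.4% at organ formation and 43.7, 53.3 and 42.5% at hatching. In larvae they held 61.0, 62.9 and 73.0%, above every library of the other stages, while every cleavage and blastocyst library lay below all later ones. A share within a library does not depend on how libraries are scaled, and no test was made of it because summed reads chose the genes.

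Within the beta class the leading copy changed. thrb held 60.2 ± 18.2% of the beta RPKM at cleavage, 58.5 ± 7.34% at blastocyst, 28.8 ± 3.68% at gastrulation and 55.5 ± 7.13% at organ formation. Its share was 39.5 ± 1.08% at hatching and 41.1 ± 3.27% in larvae. LOC109111853 held 21.7 ± 4.96% at blastocyst, 66.6 ± 8.04% at gastrulation, on 80 beta reads in all, and 49.8 ± 1.86% in larvae. Of the 2 alpha-like genes, LOC109100142 held 86.6 ± 5.49% of their reads at blastocyst and 70.1 ± 3.82% in larvae, and 79.8 ± 7.81% and 58.7 ± 4.47% of their RPKM. Common carp has a duplicated genome, and values of single copies are uncertain where their sequences are alike.

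Which of the 10 genes was highest per length changed with the stage. thrb led at cleavage (1.17 ± 0.459 RPKM) and at blastocyst (1.15 ± 0.182 RPKM), where its libraries lay above those of every other member only at blastocyst. The type I deiodinase led at gastrulation (0.458 ± 0.0916 RPKM) and ttr at organ formation (0.617 ± 0.0244 RPKM), each with libraries that overlapped those of the next gene. LOC109111853 led at hatching with 1.44 ± 0.121 RPKM, without overlap. In larvae ttr led with 6.11 ± 7.94 RPKM over the 3 libraries. Without larva replicate 3 it did not lead, with 1.53 RPKM against 2.32 for LOC109100142 and 1.81 for thrab.

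**Figure D3:**
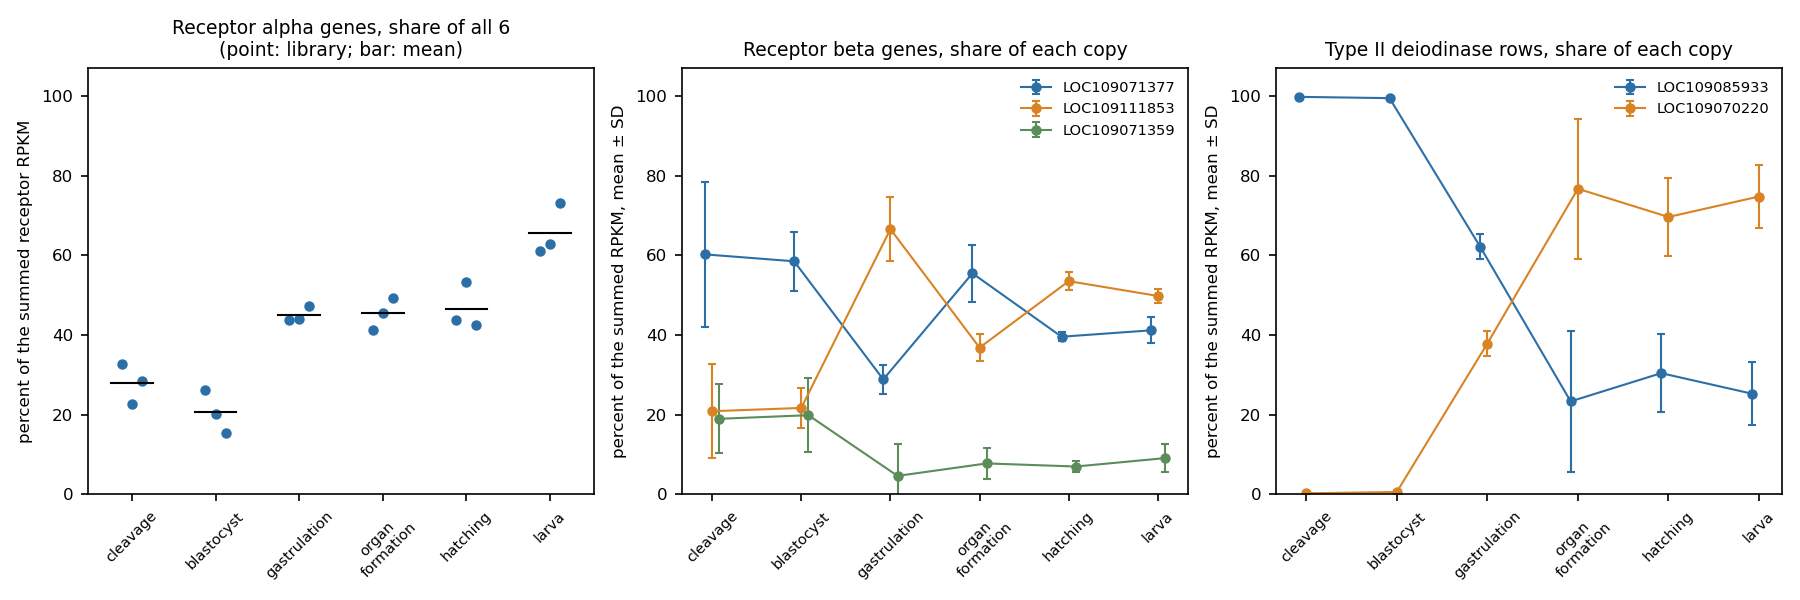
Left, percent of the summed RPKM of all 6 receptor genes held by the 3 alpha genes in each library (points; bars, means), by stage. Middle and right, percent of the summed RPKM held by each beta receptor gene and by each type II deiodinase row (mean ± SD of 3 libraries); the alpha share is highest in larvae, and dio2 (LOC109070220) passes the pseudogene-class row (LOC109085933) after gastrulation.

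Thyroglobulin and transthyretin were lowest at the first 2 stages. tg (LOC109105320) had 0.994, 0.101 and 0 CPM at cleavage and 0.403, 0.173 and 0.557 at blastocyst, then 5.46, 7.16 and 7.56 at gastrulation and 1.95, 2.43 and 2.58 at organ formation. It had 8.31, 10.4 and 7.41 CPM at hatching and 17.0, 20.0 and 56.3 in larvae. Gastrulation libraries thus lay above those of organ formation and overlapped those of hatching. tg rose at gastrulation (4.15 ± 0.63, adjusted p = 1.5e-05), fell at organ formation (-1.54 ± 0.55, adjusted p = 0.028), rose at hatching (1.91 ± 0.55, adjusted p = 0.013) and rose in larvae (1.83 ± 0.50, adjusted p = 0.023). The fall did not pass the test with library totals, RPKM denominators, DESeq2 or limma, nor without gastrulation replicate 2 or 3 or any 1 organ formation library, at adjusted p of 0.054 to 0.68. The rise at hatching had adjusted p = 0.055 without organ formation replicate 1. The larval rise was 1.07 ± 0.44, adjusted p = 0.18 without larva replicate 3, and it also lost the call without any 1 hatching library, at adjusted p of 0.055 to 0.12.

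ttr (LOC109052536) had 0.654, 0.638 and 1.08 CPM at cleavage, 0.995, 0.865 and 1.04 at blastocyst and 5.80, 2.90 and 2.11 CPM at gastrulation. It had 6.99, 5.95 and 5.99 CPM at organ formation, 5.27, 4.08 and 4.76 at hatching and 11.002, 11.4 and 109 in larvae. All larval libraries lay above all earlier ones, and 1 of them lay far above the other 2. Larvae stood above hatching by 3.21 ± 0.71, adjusted p = 0.0083, and without larva replicate 3 by 1.23 ± 0.32, adjusted p = 0.019. Fitted on those stages alone, the difference had adjusted p = 0.16. Larvae stood above cleavage by 5.83 ± 0.85, adjusted p = 1.6e-05, and without that library by 3.68 ± 0.36, adjusted p = 5.3e-09. The step to gastrulation (1.84 ± 0.78, adjusted p = 0.051) just missed the threshold and passed it without that library (1.73 ± 0.33, adjusted p = 8.1e-05), since the spread of all libraries enters each test. In the same manner the step to organ formation, 0.86 ± 0.72, adjusted p = 0.35, became 0.83 ± 0.31, adjusted p = 0.031. In larvae ttr had 1.498, 1.56 and 15.3 RPKM, against 2.34, 2.30 and 3.85 RPKM for LOC109100142, so that which of them was higher per length turned on the library.

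In mammals the liver makes plasma transthyretin. Most tested rows of the liver plasma protein list rose at gastrulation, and RNA of whole embryos does not show which tissue held them. The 26 rows of the liver plasma protein list summed to 7.16, 10.3 and 5.59 CPM at blastocyst, 3790.4, 4372 and 3602 at gastrulation, 13961, 13104 and 14197 at hatching and 10092, 9440.3 and 9285 in larvae. At gastrulation against blastocyst 16 of 19 tested rows rose and 1 fell, where 44.4% and 22.3% of all features did, with a median log2 change of 5.56 beside 0.75 over all features. At blastocyst 13 of the 26 rows had 0 reads. Such rows could pass the low-count filter only through other stages and could only be called higher at this step. The count and the median beside those of all features are therefore not evidence for the list. In larvae against hatching 1 rose and 2 fell, beside 5.32% and 6.13% of all features; without larva replicate 3, 1 rose and 4 fell, beside 2.77% and 4.41%. Apolipoprotein A-I-like (LOC109074514), a lipoprotein component, had 1781 ± 382 CPM in larvae and 3121 ± 182 at hatching (log2 change -0.81 ± 0.20, adjusted p = 0.011; adjusted p = 0.027 without larva replicate 3). Apolipoprotein A-I-2-like (LOC109055542) had 2191 ± 253 and 2891 ± 222 CPM, and the protease inhibitor alpha-1-antitrypsin homolog (LOC109112546) 1909 ± 98.3 and 2214 ± 101 CPM, neither of which passed the test. In larva replicate 3, 8 of the 26 rows were higher by over 1 on the log2 scale than in the other larvae and 2 were lower.

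Maternal transcripts fell at the step where the 5 receptors fell, and their sum was already lower at blastocyst than at cleavage. The 55 rows of the maternal oocyte list summed to 533, 626 and 582 CPM at gastrulation, against 2185, 2236 and 2359 at blastocyst. Of 54 tested rows 40 fell, where 22.3% of all features did. The list was made of early-stage markers, so a later fall was built into the choice of its rows. In larvae 8 of the 55 rows had 0 reads, and rows like these could pass the low-count filter only through other stages. The count beside all features is therefore not evidence for the list. The oocyte gene btg4 (LOC109087968) had 7.11 ± 6.68 CPM at gastrulation and 298 ± 34.1 at blastocyst. The oocyte kinase wee2 (LOC109109986) had 8.65 ± 4.81 and 389.8 ± 8.002 CPM, and zygote arrest protein 1-like (LOC109097738) 13.9 ± 1.77 and 180.1 ± 8.31 CPM. In larvae the list summed to 17.6, 16.4 and 14.8 CPM, while 4 of the 5 receptor genes that fell at gastrulation averaged 6.92 CPM or more. What maternal RNA contributed to the early receptor levels was not tested.

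Most tested tissue marker rows of the late stages rose at hatching, where the summed receptor level was also higher than at organ formation. The 76 rows of the red cell and muscle list summed to 1292, 1315 and 1289 CPM at organ formation, 13087, 12973 and 13165 at hatching and 15117, 16718 and 18063 in larvae, and 37 of 63 tested rose at hatching, where 17.4% of all features did. The list was made of late-stage markers. Of its rows 48 had 0 reads at cleavage and 8 at organ formation, and rows like these could pass the low-count filter only through other stages. The count beside all features is therefore not evidence for the list. The calcium buffer parvalbumin beta-like had 1482 ± 151 CPM at hatching and 4.95 ± 1.11 at organ formation for LOC109096999, and 1163 ± 132 and 14.3 ± 1.17 CPM for LOC109097013. Hemoglobin embryonic subunit alpha (LOC109056219) had 1765 ± 282 and 169 ± 4.84 CPM. In larvae hemoglobin was lower than at hatching, at 769 ± 83.4 CPM. Both parvalbumin rows were higher there, at 3375 ± 323 CPM (LOC109096999) and 2336 ± 237 CPM (LOC109097013). Whether receptor RNA per cell changed alongside was not tested.

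Genes of the thyroid gland were described from a list of 23 rows. At gastrulation against blastocyst 16 of 21 tested rows rose and 1 fell, where 44.4% and 22.3% of all features did, with a median log2 change of 5.28 beside 0.75 over all features. At blastocyst 8 of the 23 rows had 0 reads. Such rows could pass the low-count filter only through other stages and could only be called higher at this step. The count and the median are therefore not evidence that the list rose. Those with the highest levels were transcription factors that are also used outside the thyroid. hhex (LOC109084975), which acts in early endoderm and blood, had 35.9 ± 10.4 CPM at gastrulation and 0.732 ± 0.359 at blastocyst (log2 change 5.61 ± 0.36, adjusted p = 1.1e-11). pax8, used in kidney and ear as well, had 15.9 ± 1.43 CPM at gastrulation and no reads in any blastocyst library. The homeobox gene nkx2.4b (LOC109103911) had 11.4 ± 1.14 and 2.42 ± 0.492 CPM (log2 change 2.23 ± 0.24, adjusted p = 3.6e-08).

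Among the genes that make the hormone, tpo and slc5a5 averaged under 1 CPM at every stage. Thyroid peroxidase-like (LOC109084952, tpo), which iodinates thyroglobulin, had 0.982 ± 0.113 CPM in larvae, 0.742 ± 0.360 at hatching and 0.0175 ± 0.0303 at organ formation. The iodide transporter slc5a5 (LOC109099584) had 0.487 ± 0.336 CPM in larvae and 0.196 ± 0.339 at cleavage. The thyrotropin receptor-like genes had 1.06 ± 0.130 CPM (LOC109069715) and 0.704 ± 0.548 CPM (LOC109081289) in larvae, and the second of them 1.90 ± 0.569 CPM at cleavage. At gastrulation the tg-described row was at 6.73 ± 1.12 CPM (0.123 ± 0.0339 RPKM) and tpo at 0.0679 ± 0.00264 CPM. CPM is not per length, so the levels of these genes are not ranked. Dual oxidase 1-like (LOC109059806), the peroxide source of hormone synthesis, had 5.82 ± 0.819 CPM at organ formation and 0.529 ± 0.0774 at gastrulation (log2 change 3.44 ± 0.60, adjusted p = 5.5e-05), and 0.224 ± 0.183 in larvae. A dual oxidase maturation factor row (LOC109072099) had 1.64 ± 0.354 CPM at organ formation, 1.84 ± 0.542 at hatching and 1.87 ± 0.382 in larvae. Another (LOC109059817) had 0.310 ± 0.370, 0.290 ± 0.0308 and 0.290 ± 0.190 CPM at these stages. Iodotyrosine deiodinase 1-like (LOC109060687), which recovers iodide, had 7.64 ± 3.20 CPM in larvae and 2.00 ± 0.0927 at hatching (log2 change 1.93 ± 0.51, adjusted p = 0.017), and its adjusted p was 0.14 without larva replicate 3. The other iodotyrosine deiodinase row, named iyd in the deposited table, had 0.603 ± 0.0892 CPM in larvae and 0.259 ± 0.0632 at hatching. LOC109060687 also carries the symbol iyd.

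Pituitary and hypothalamic genes of the axis were mostly at or near 0. Of 20 rows, 8 passed the low-count filter. In larvae against cleavage 7 of these rose, where 58.5% of all features did, and without larva replicate 3, 5 rose, beside 54.8%. Rows such as tshba and cga had 0 CPM at cleavage and could pass the filter only through later stages. The count is therefore not evidence that the list rose. The thyrotropin beta subunit tshba (LOC109104673) had 0.472 ± 0.138 CPM in larvae and 0.195 ± 0.0651 at hatching, and its partner cga had 0.644 ± 0.134 and 0.237 ± 0.0444 CPM. The rows with the highest mean over the 18 libraries were receptors for thyrotropin-releasing hormone. LOC109105600 had 8.67 ± 2.23 CPM at organ formation and 0.342 ± 0.247 at gastrulation (log2 change 4.83 ± 0.54, adjusted p = 1.6e-07), and LOC109088556 had 11.3 ± 2.02 and 0.449 ± 0.211 CPM (4.71 ± 0.36, adjusted p = 4.4e-10). The third, LOC109072933, moved the other way, at 1.31 ± 0.471 CPM at organ formation and 6.55 ± 0.956 at gastrulation (-2.32 ± 0.32, adjusted p = 2.5e-06).

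Most tested rows for transporters that bring the hormone into cells rose at gastrulation. Of 33 rows 26 were tested, 19 rose and 1 fell, where 44.4% and 22.3% of all features did, and at organ formation 9 rose and 12 fell, beside 28.1% and 19.8%. At blastocyst 9 of the 33 rows had 0 reads, and such rows could only be called higher at gastrulation. The amino acid and iodothyronine transporter slc7a8a (LOC109108424) had 662 ± 86.0 CPM at gastrulation and 13.9 ± 1.71 at blastocyst (log2 change 5.58 ± 0.28, adjusted p = 4.5e-12). Its heavy chain slc3a2 had 176 ± 17.9 and 125 ± 10.48 CPM (0.50 ± 0.12, adjusted p = 8.3e-04), a change below the 0.75 median of all features at that step, and fell to 28.0 ± 3.63 CPM at organ formation (-2.65 ± 0.13, adjusted p = 3.0e-13). LOC109055061, a large neutral amino acid transporter small subunit 4-like gene that the list's words took in without a known part in hormone uptake, had 239 ± 34.2 and 0.381 ± 0.123 CPM.

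Partners of the receptors moved in both directions, in shares near those of all features at gastrulation. Of 34 tested rows (retinoid X receptors, coactivators and corepressors), 15 rose and 9 fell at gastrulation, where 44.4% and 22.3% of all features did. In larvae against cleavage 16 rose and 10 fell, beside 58.5% and 22.5%, with a median of 0.17 beside 2.12 over all features. Without larva replicate 3, 13 rose and 12 fell, beside 54.8% and 23.1%. The corepressor ncor1 (LOC109072913) had 157 ± 12.0 CPM at gastrulation, where receptors were lowest, and 145 ± 4.74 at blastocyst (log2 change 0.12 ± 0.10, adjusted p = 0.34). In larvae it had 91.2 ± 0.963 CPM. The 2 rows with the highest levels, both proline-rich nuclear receptor coactivator 2-like, have names that lie outside the partners meant: LOC109104995 had 927 ± 100.1 and 397 ± 39.4 CPM at these stages, and LOC109106168 423 ± 34.9 and 649 ± 39.0 CPM.

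Krueppel-like factor 9 is a direct target of the hormone in frogs and mammals, and 4 rows carry its name. klf9 (LOC109108959) had 15.0 ± 2.84 CPM in larvae and 1.53 ± 0.104 at hatching (log2 change 3.29 ± 0.31, adjusted p = 8.0e-07), and LOC109093091 had 3.20 ± 0.672 and 0.421 ± 0.153 CPM (2.92 ± 0.49, adjusted p = 3.8e-04). Both calls held without larva replicate 3, at adjusted p of 1.3e-06 and 5.9e-04. The most abundant row, LOC109106055, went the other way, at 23.1 ± 5.63 CPM in larvae and 41.1 ± 6.81 at hatching (-0.83 ± 0.16, adjusted p = 0.0016, and 0.0067 without larva replicate 3), and had its highest level, 100.5 ± 8.59 CPM, at gastrulation. The fourth, LOC109083595, had 1.37 ± 0.429 CPM in larvae and 0.410 ± 0.217 at hatching. klf9 is also a target of glucocorticoid receptors, and the list of response genes held only these 4 rows.

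Deiodinases are selenoproteins. A list of rows was taken by name for selenoprotein synthesis, and the part of each in it was not checked. The share of these that rose at gastrulation was near that of all features. Of 16 tested rows 7 rose and 6 fell at that stage, where 44.4% and 22.3% of all features did. Named for their level, sephs1 (LOC109108896) had 316 ± 57.1 CPM at gastrulation and 52.0 ± 5.95 at blastocyst (log2 change 2.60 ± 0.14, adjusted p = 5.3e-13), the selenide, water dikinase 1-like gene LOC109109206 298 ± 44.8 and 80.8 ± 3.86 CPM, and tRNA selenocysteine 1-associated protein 1-like LOC109047357 209 ± 20.5 and 56.8 ± 3.01 CPM. In larvae against cleavage 4 of these rows rose and 8 fell, beside 58.5% and 22.5% of all features. Without larva replicate 3, 4 rose and 9 fell, beside 54.8% and 23.1%.

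**Figure D4:**
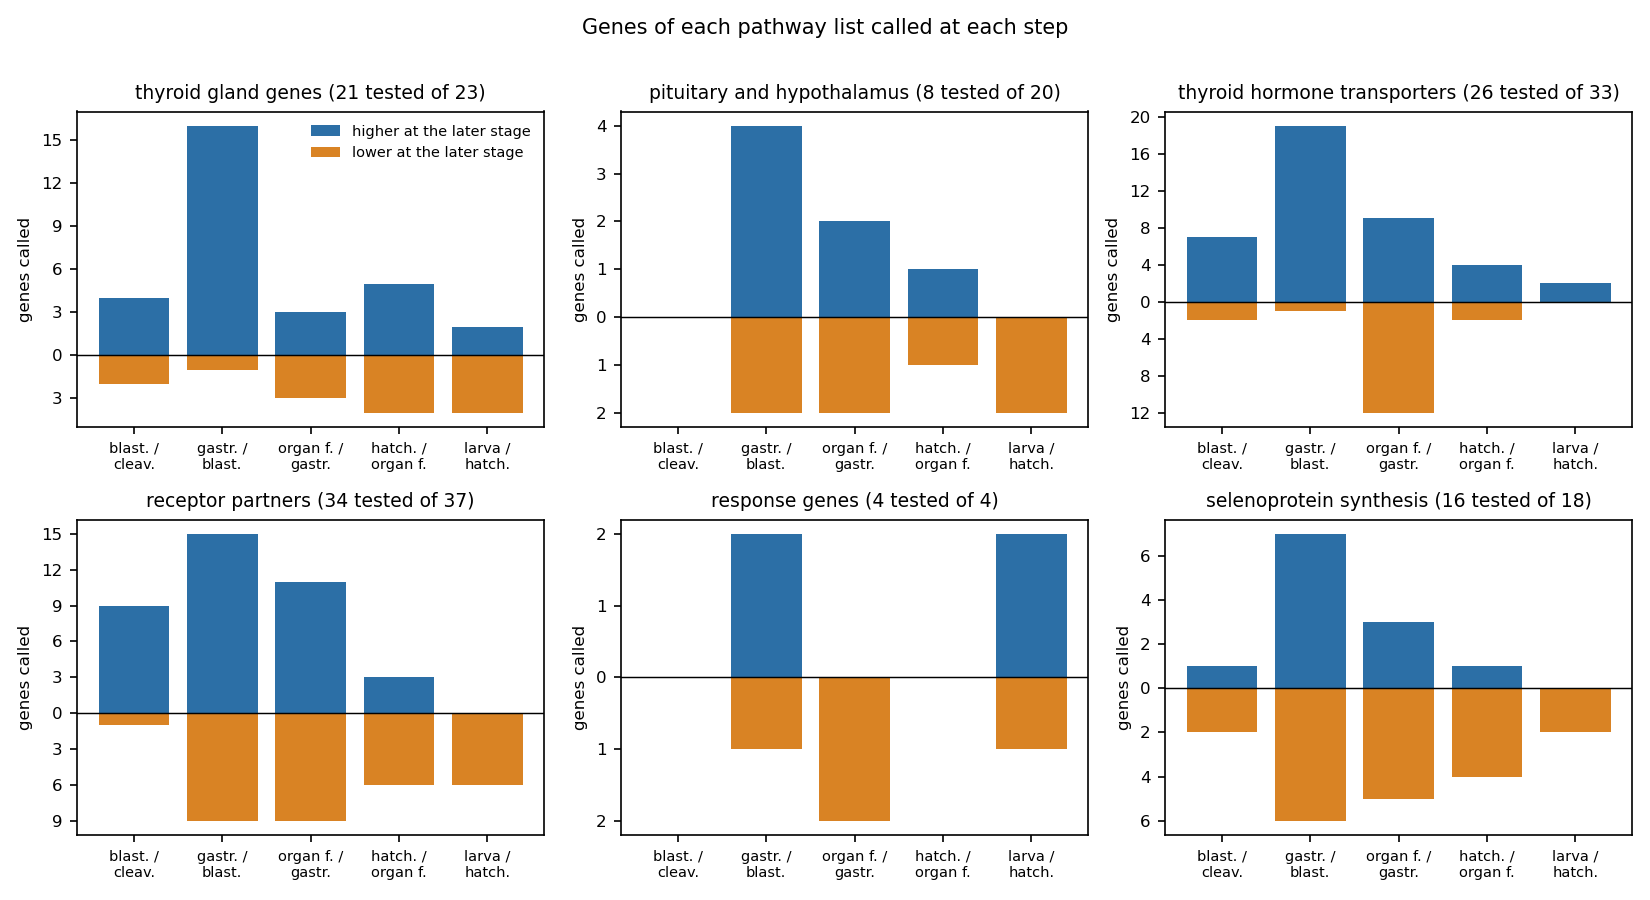
Number of genes (vertical axes; above 0, higher at the later stage, below 0, lower) with an adjusted p under 0.05 in 6 pathway lists at each of 5 steps. The gastrulation step holds the most genes called higher in the gland (16), transporter (19) and selenoprotein (7) lists, and it is also the step at which the largest share of all features rose (44.4%). Rows with 0 reads at blastocyst could only be called higher there.

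The genes whose levels were most like those of the leading gene of each role were found by Pearson's r of log2 CPM over the 18 libraries, among 32166 named protein-coding features with a mean of 1 CPM or more. The libraries share stages and the points form clusters, so r is a description. For the receptor LOC109100142 they were the actin-binding profilin-2-like LOC109047427 (r = 0.987), napbb (0.981), which acts in vesicle fusion, and a voltage-dependent calcium channel subunit alpha-2/delta-2-like gene, LOC109092019 (0.978). For the type I deiodinase they were delta(14)-sterol reductase-like LOC109097984 (0.931), nostrin (0.930) and the mitochondrial inner membrane gene micos10 (0.924). For ttr they were the sterol synthesis enzyme hmgcra (0.965), keratin zgc:158846 (0.953) and cmah (0.951), and without larva replicate 3 these values were 0.941, 0.937 and 0.928.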

How the data were processed

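Strand-specific, rRNA-depleted total RNA was sequenced from 18 libraries. Per the submitters' processing notes the tools were HISAT2, StringTie 1.3.3b, featureCounts and edgeR. The build was not given in the sources used here, nor was the rule for reads that fit several gene copies. The authors deposited whole-number read counts per feature and RPKM values; the 18 count files equal the count columns of the deposited series table, and 0 columns were left unused. The table holds 58294 annotated and 32514 StringTie features. RPKM entered only per-length comparisons within a stage, copy shares and limma alternatives; its denominators differed between stages from TMM-scaled totals, and that scaling was run as an alternative.

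Counts were tested with edgeR 4.0.16 in R 4.3.3 (filterByExpr, TMM, robust quasi-likelihood F test, 1 coefficient per stage on all 18 libraries), with Benjamini-Hochberg adjustment over 69265 features and a threshold of 0.05. A ± value after a log2 change is the standard error, elsewhere the SD of 3 libraries; levels are CPM. Every neighbouring pair of stages and larvae against cleavage were compared. The alternatives were DESeq2 1.42.0 and its size factors, library totals, RPKM denominators, 2 other filters, limma 3.58.1 on log2(RPKM + 1) and log2(RPKM + 0.1), the compared stages alone, a replicate block, and each library left out. On counts simulated for larvae against hatching over 67639 features, 28% of 100 genes changed 2-fold and 85% of 100 genes changed 4-fold were recovered, with 4 false calls.

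Libraries of a stage differed beyond sampling noise (chi-square per degree of freedom of 3.84 or more). The replicate numbers were not used to pair samples. The members and the gene lists were chosen with earlier results of these data known. The rule for named genes took all members, the next matched rows, in each list the 3 genes of highest mean CPM and, for the leading member of each role, the 3 features with the most similar profile (prior count 2). For the thyroid gland, pituitary and response lists, further genes were chosen after values were seen. Of the 10 members, 9 had an entry in the RefSeq gene table (ASM1834038v1), which gave symbols only. Sequences and coordinates are not used here.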

Additional observations from a re-analysis of the deposited data

How the results depend on the processing

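In each comparison the calls on the 10 genes that held under every alternative that gave a p-value, including each library left out, were 5 of 9 at gastrulation against blastocyst, 2 of 6 at organ formation against gastrulation, 4 of 5 at hatching against organ formation, 1 of 3 in larvae against hatching and 7 of 8 in larvae against cleavage. At gastrulation against blastocyst 4 of the 10 rose, but 2 did with library totals, RPKM denominators, no filter, a filter of 1 CPM in 3 libraries or limma on log2(RPKM + 0.1), and 1 with limma on log2(RPKM + 1). At organ formation 5 rose, but 2 with limma on log2(RPKM + 1), and 1 fell, but 0 with library totals, RPKM denominators, DESeq2 or limma. At hatching 0 fell, but 1 with the compared stages alone or DESeq2, and in larvae against hatching 3 rose, but 1 with DESeq2, which gave no p-value for ttr, and 5 with limma. Leaving out 1 library gave 0 to 1 rising at blastocyst, 2 to 4 rising at gastrulation and 0 to 1 falling at organ formation.

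Over the pathway lists together, 21 genes rose at blastocyst against cleavage, but 10 with RPKM denominators, 32 without a filter, 33 with the 1 CPM filter, 12 with the compared stages alone, and 2 and 5 with limma at pseudocounts of 1 and 0.1. There 7 fell, but 4 without a filter and 3 with the compared stages alone. At gastrulation 63 rose, but 35 and 37 with limma, and 20 fell, but 35 with RPKM denominators and 33 with limma at 0.1. At hatching against organ formation 14 rose, but 34 with RPKM denominators, 22 with the compared stages alone, and 38 and 43 with limma, and 17 fell, but 2 with RPKM denominators and 3 with limma. In larvae against hatching 6 rose, but 12 with the compared stages alone, 14 with DESeq2, and 19 and 16 with limma, and 15 fell, but 6 with RPKM denominators. Without 1 library these counts ranged over 17 to 34 rising and 3 to 7 falling at blastocyst, 8 to 17 and 9 to 20 at hatching, and 3 to 9 and 9 to 16 in larvae against hatching. In the main fit 15.8% of all features rose and 6.52% fell at blastocyst, and 44.4% and 22.3% at gastrulation. At hatching the shares were 17.4% and 12.2%, and in larvae against hatching 5.32% and 6.13%. The shares of all features under the alternatives are not given. The median log2 change of all features at hatching also moved, from -0.007 to 0.396 with RPKM denominators, so these counts are not a result about the lists. The cause of these differences was not tested.

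Of single genes, the uncalled changes that turned sign were at blastocyst against cleavage LOC109100142 (0.087 without a filter, 0.11 with the 1 CPM filter), LOC109105320 (0.058 and 0.076), LOC109071377 (-0.013 with RPKM denominators) and LOC109076656 (0.019 with the 1 CPM filter). LOC109076656 was called at gastrulation against blastocyst, and there it turned to -0.20 with RPKM denominators and to -0.069 and -0.18 with limma. At organ formation it was -0.064, -0.10 and -0.037 without a filter, with the 1 CPM filter and with the compared stages alone. In larvae against cleavage LOC109071377 was -0.029 with RPKM denominators and LOC109071359 was 0.11 with DESeq2 or its size factors. Without 1 library the blastocyst change ranged over -0.36 to 0.27 for LOC109100142, -0.38 to 2.59 for LOC109105320, -0.088 to 0.75 for LOC109071377, -0.48 to 0.25 for LOC109076656, -0.22 to 4.06 for LOC109052976 and -0.049 to 0.88 for LOC109071359. It ranged over -0.088 to 0.084 for LOC109071377 in larvae against hatching, -0.10 to 0.075 for LOC109076656 at organ formation and -0.32 to 0.26 for LOC109071359 in larvae against cleavage. By RPKM in place of reads, the share of LOC109100142 in the alpha-like pair was 69.8% at cleavage, 79.8% at blastocyst, 50.2% at organ formation, 51.8% at hatching and 58.7% in larvae (79.1, 86.6, 62.2, 63.8 and 70.1% of reads), and that of LOC109071377 in the beta genes at hatching was 39.5% (37.2% of reads).

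Same-numbered libraries did not deviate together (correlations of their deviations from the stage means of -0.0852 to 0.0847). With the replicate number as a block, no count above moved by over 1.5 times, and of the single changes of the 10 genes 1 gained a call, LOC109052536 at gastrulation against blastocyst (1.91, adjusted p = 0.031), which 5 other alternatives also called. With 6 and 24 reads at cleavage and blastocyst for dio2, and 15 and 34 for receptor alpha-A, their early levels are limited by depth.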
